A study of Mus musculus with 6 samples.

Results

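Pou5f1 encodes Oct4, the factor of the usual reprogramming set that Tet1 stood in for here, and the peaks around it were followed through reprogramming. All peaks of 5-hydroxymethylcytosine (5hmC) and 5-methylcytosine (5mC) that overlapped a window of 100 kb around the gene were taken, on mm9 chromosome 17 from 35600001 to 35700000. They numbered 74 of the 663518 peaks in the 6 deposited lists. Distances were counted from 35643000, an approximate start of the gene on the plus strand, and 35647700 was used as its end. Both limits were given with the rule that chose the window and were not read from an annotation.

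Oct4 is a POU-domain transcription factor that embryonic stem and induced pluripotent stem (iPS) cells need to remain pluripotent, and fibroblasts do not express it. Its regulatory DNA upstream of the start holds a proximal promoter, a proximal enhancer and a distal enhancer, of which naive pluripotent cells mainly use the distal one. The promoter and enhancer are known to be methylated in differentiated cells and to lose that methylation during reprogramming. Tet1 oxidises 5mC to 5hmC, which is one route by which methylation is removed.

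The cells came from a secondary reprogramming system in which doxycycline switches on Tet1, Sox2, Klf4 and c-Myc, without Oct4. The groups were fibroblasts derived from mice made from such iPS cells (TSKM) at passage 4, such fibroblasts given doxycycline for 3 days in embryonic stem cell medium (day 3), and an iPS cell line of the system at passage 10 to 15. All groups carried the strain label OG2-GFP/Rosa26-M2rtTA. M2rtTA is a doxycycline-dependent activator, placed at the Rosa26 locus. OG2 is known as a reporter that carries GFP within Oct4 genomic sequence, in addition to the endogenous gene. DNA of such a transgene aligns to Pou5f1, so transgene and endogenous gene cannot be told apart in these lists. Extra copies add reads at the gene in every library, so on their own they could give peaks, high scores and high ranks there, whatever the endogenous gene carries. The transgene's extent and copy number are not stated in the labels. The iPS cells were grown on feeder fibroblasts, which were reduced by a short plating step. The lists hold no expression values, so the cell types could not be checked against marker genes. There was 1 library per stage and mark, so no comparison below has replicate error or a test.

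Most methylation of mammalian DNA sits at CpG dinucleotides. The 250 bases before each of the 2 Pou5f1 starts in the RefSeq promoter table are shown for their CpG content. Peaks were placed only against the approximate mm9 start, and not on either of these sequences. Sequences are 5′ to 3′ on the plus strand, from RefSeq on GRCm38.p6, with each CpG in capitals. Their coordinates are on that build and differ from the mm9 coordinates of the peaks. The first lies at chr17:35505782-35506031 and the second at chr17:35508557-35508806.
Pou5f1 start 1: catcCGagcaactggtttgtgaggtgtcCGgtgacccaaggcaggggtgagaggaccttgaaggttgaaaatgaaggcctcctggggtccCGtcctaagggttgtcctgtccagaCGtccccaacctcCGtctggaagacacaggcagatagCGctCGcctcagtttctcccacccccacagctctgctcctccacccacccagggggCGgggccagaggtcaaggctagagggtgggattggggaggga
Pou5f1 start 2: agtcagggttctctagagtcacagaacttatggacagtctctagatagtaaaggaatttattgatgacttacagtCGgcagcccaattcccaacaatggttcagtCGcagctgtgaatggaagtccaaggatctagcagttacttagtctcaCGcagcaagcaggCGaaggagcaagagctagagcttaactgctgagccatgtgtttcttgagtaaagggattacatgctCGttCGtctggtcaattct

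The sequence before the first start held 8 CpG and the second held 6. Among 32841 upstream sequences of 250 bases in that table, 43% held at least 8 CpG and 50.4% at least 6, and the median was 6, so both are near the middle of the table. The motif GGGCGG, the core of a GC box, occurred 1 time before the first start and began 45 bases before it. It occurred in 32.7% of all these sequences on either strand. The nuclear receptor half-site AGGTCA began 33 bases before the first start and occurred in 14% of the sequences. The motifs do not overlap, and the sequence before the second start held neither. The second start lies 2775 bp after the first on GRCm38.p6, within the gene.

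Both marks had peaks over the whole of Pou5f1 and over the DNA around it at all 3 stages, from the endogenous gene, the transgene or both. The 250 bp before the approximate start were covered over 100% of their length in each of the 6 lists. Among tiles of that length across the genome, 0.0607% were covered over at least 90% in all 6 lists, and more were so in a single list. For 5hmC that share was 1.07% in fibroblasts, 4.05% at day 3 and 5.91% in the iPS list. For 5mC it was 3.50%, 5.33% and 1.85%. The gene itself was covered over 99.7% to 100% in the 6 lists. Of 548154 tiles of its length, 20 (0.00365%) were covered over at least 90% in all 6 lists. The segment from 3 to 1 kb upstream, where the distal enhancer lies, was covered over 100% in both fibroblast lists and both day-3 lists. It was covered over 95.8% in iPS 5hmC and 96.2% in iPS 5mC. For that segment length 0.00489% of tiles were covered over at least 90% in all 6 lists.

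These peaks formed a single run with nearly the same limits in every list. With peaks within 1 kb joined, the run over the gene began between 35634167 (day-3 5mC) and 35634555 (iPS 5mC), a spread of 388 bp over the lists. It ended between 35652194 (iPS 5mC) and 35652495 (iPS 5hmC), a spread of 301 bp. The run reached from 8.83 kb upstream to 9.49 kb downstream of the approximate start at its widest, or 18.3 kb. The stretch shared by all lists was 17.6 kb, which is 96.2% of that extent. Within it, peaks covered between 95.3% of the bases in iPS 5hmC and 99.1% in fibroblast 5mC.

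Few places in the genome looked like this. Across the genome, 3024 stretches lay in joined peaks of all 6 lists, with a median length of 691 bp. The Pou5f1 stretch was the longest but 1. The longest, of 57.1 kb, was on chromosome 11 from 3042068 to 3099163. Stretches of 14.4 kb on chromosome Y and 12.5 kb on chromosome 1 followed, and 4 stretches in all reached 10 kb. These 3 other stretches made up 77.9%, 54.8% and 15.4% of the widest extent of the joined peaks over them. The extent on chromosome 11 also held a second shared stretch, of 7.4 kb. Such a share is lower where an extent holds several stretches, so it does not compare how closely the limits agree. Among shorter stretches the share varied, from 91.5% for 6.92 kb on chromosome 2 and 90.1% for 6.13 kb elsewhere on chromosome 17 to 24% for 7.72 kb on chromosome X. The part of the OG2 transgene in the run was not tested.

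**Figure D1:**
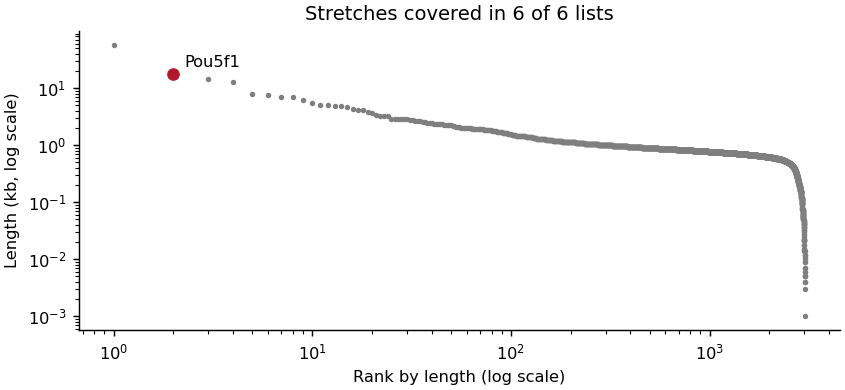
Length in kb (log scale) of each of the 3024 genome stretches that lie in joined peaks of all 6 lists, against its rank by length (log scale). The red point is the Pou5f1 stretch, at 17.6 kb and rank 2, and each grey point is another stretch.

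The scores of the run's peaks were among the highest of each list. The score is the authors' value from the peak caller, taken to be the p-value as a negative log10, times 10, and 3100 is a value that recurs at the top of every list. In fibroblast 5hmC the run consisted of 3 peaks, all with a score of 3100, out of 42 peaks with that score in the whole list. Fibroblast 5mC likewise had 3 peaks at 3100, out of 45. At day 3 the 5mC run had 3 peaks at 3100, out of 192. The day-3 5hmC run had 2 at 3100, out of 258, and 1 at 2064.33. In iPS 5hmC there were 3 peaks at 3100, out of 45, and 1 at 1115.92. In iPS 5mC 1 peak had 3100, out of 33, and the others had 2813.18 and 1584.42. The peak with the lower score at day 3 in 5hmC and in both iPS lists was the one over the segment with the distal enhancer. It ran from 3.75 to 0.92 kb upstream in day-3 5hmC, from 3.74 to 1.09 kb in iPS 5hmC and from 3.68 to 1.08 kb in iPS 5mC. Only 0.683%, 0.45% and 0.0932% of the peaks of these lists had a higher score, so the scores were lower within the run and still high within the lists. In fibroblast 5mC and day-3 5mC the corresponding peak had 3100, and in fibroblast 5hmC a single peak at 3100 spanned from 8.45 to 0.92 kb upstream. Since scores depend on depth, which is unknown, these differences between lists were not read as changes of a mark.

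The run was broken at the same 2 places upstream of the gene in most lists. The first break lay from 3.86 to 3.68 kb upstream and was 48 bp long in fibroblast 5mC and up to 183 bp in iPS 5mC. It was absent from fibroblast 5hmC. The second break lay just before the promoter, and a stretch of 111 bp there, from 858 to 748 bp upstream (35642142 to 35642252), was in no peak of any list. For 5mC the break measured 111 bp in fibroblasts, 220 bp at day 3 and 479 bp in the iPS list. For 5hmC it measured 372 bp, 477 bp and 689 bp. The break was thus longer at each later stage for both marks, and longer for 5hmC than for 5mC at each stage, in single libraries. The proximal segment from 1 kb upstream to 0.5 kb downstream was accordingly covered over 75.2%, 68.2% and 59.7% by 5hmC at the 3 stages. The 5mC peaks covered 92.6%, 85.3% and 73.2% of it. The OG2 transgene is known to lack the proximal enhancer. Whether the break lies at the missing piece was not tested, as the labels do not give its limits.

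A further break within the run lay near the end of the gene, 4.51 to 4.54 kb from the start. It was 15 bp long in fibroblast 5hmC and 11 bp in iPS 5hmC and did not occur in the other lists. In those 4 lists a single peak covered the gene and the DNA downstream of it. That peak was 10127 bp wide in fibroblast 5mC, 9765 bp in day-3 5hmC, 10014 bp in day-3 5mC and 9793 bp in iPS 5mC. By width it had rank 10 in each of the 3 5mC lists and rank 13 among the 116087 peaks of day-3 5hmC.

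**Figure D2:**
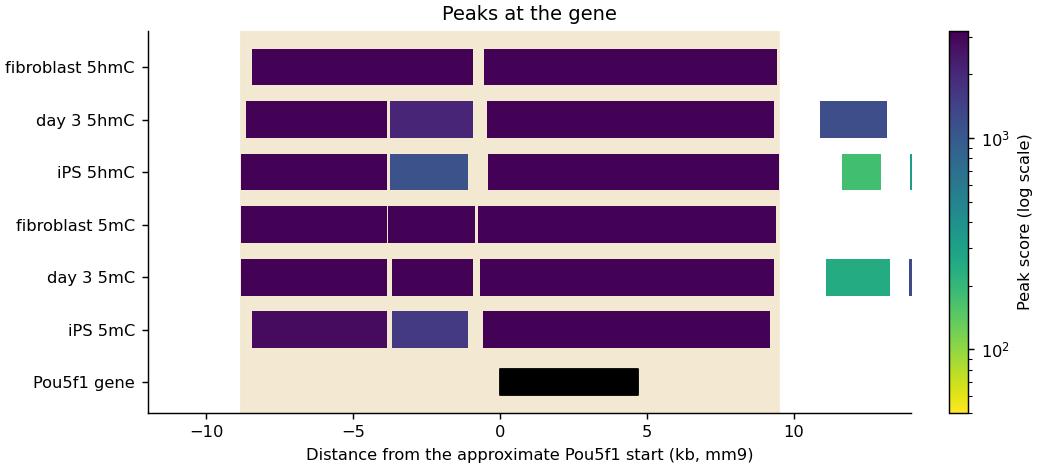
Peaks of each list (rows) against distance in kb from the approximate Pou5f1 start, with the score as colour on a log scale, the gene in black and the widest extent of the run shaded. The 6 runs share their outer limits within 388 bp on the left and 301 bp on the right, and the break before the promoter occurs in each row.

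Covered length in the run hardly differed between the stages. From fibroblasts through day 3 to iPS cells, the 5hmC peaks covered 17.5 kb, 17.4 kb and 17.5 kb of it, and the 5mC peaks 18 kb, 17.8 kb and 17 kb. The iPS value for 5mC was 0.942 times that of fibroblasts. At Pou5f1 itself both marks thus remained listed at each stage, with the transgene counted in. A peak near the highest score cannot show how much of a mark a region carries, so a change in level within the run is not measured.

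Outside the run the window was nearly empty on the upstream side. Over the 34.2 kb between the window's first base and the run, 6 peaks lay at 3 places. The place 28.45 to 27.66 kb upstream had a fibroblast 5mC peak with a score of 51.75, a day-3 5mC peak with 180.77 and an iPS 5hmC peak with 59.38. The place 17.38 to 16.71 kb upstream had peaks at day 3 alone, with 63.24 for 5hmC and 101.39 for 5mC. An iPS 5hmC peak with 55.65 lay 12.54 to 11.99 kb upstream. Of these, 4 scores were below 100. No peak of fibroblast 5hmC or iPS 5mC lay in this flank.

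The downstream flank, the 47.5 kb from 35652496 to 35700000, changed between stages. In the RefSeq gene order, Pou5f1 is followed by Tcf19, Cchcr1, Psors1c2 and Cdsn. Peaks were not assigned to these genes, since no mm9 annotation was used. Through the stages, 5hmC covered 1.84 kb, 12.4 kb and 19.5 kb of the flank, in 3, 7 and 14 peaks. 5mC covered 14.4 kb, 20.4 kb and 4.17 kb, in 9, 13 and 3 peaks. 5hmC thus covered 10.6 times as much in iPS cells as in fibroblasts, and 5mC 0.289 times as much. The whole lists changed in the same directions. At the 3 stages they covered 35.9 Mb, 127 Mb and 187 Mb for 5hmC and 111 Mb, 170 Mb and 59.7 Mb for 5mC. These ratios are therefore not particular to the flank as a whole, and the part that is was not tested.

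Most of the genome went the same way, so the directions are not particular to Pou5f1. Of 39812 windows of 50 kb with a peak in any list, 68.2% had more 5hmC in iPS cells than in fibroblasts, and 58.6% had less 5mC. From fibroblasts to day 3, 62.2% had more 5hmC and 74.7% had more 5mC. From day 3 to iPS cells, 54.6% had more 5hmC and 80.0% had less 5mC. By size in covered kb, the flank stood nearer to the extreme. Such sizes depend on how much of a window is covered, as a window with little 5mC cannot lose as much. Changes relative to the earlier stage were not ranked. Its 5hmC gains of 10.5 kb to day 3, 7.09 kb from then on and 17.6 kb in all were reached by 5.07%, 10.7% and 3.04% of these windows. 5mC rose by 5.96 kb to day 3, which 3.26% of windows reached. It then fell by 16.2 kb to the iPS stage, which 0.472% reached, and fell by 10.3 kb from fibroblasts to iPS cells, which 0.565% reached. These windows are slightly longer than the flank.

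**Figure D3:**
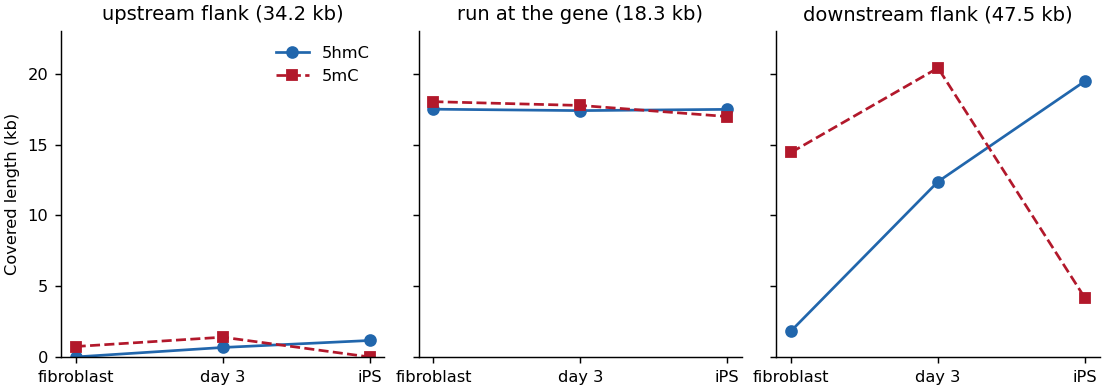
Length in kb covered by 5hmC peaks (circles) and 5mC peaks (squares) at the 3 stages, in the upstream flank, the run at the gene and the downstream flank. Each point is 1 library. The run stays between 17 and 18 kb, whereas in the downstream flank 5hmC goes from 1.84 to 19.5 kb and 5mC from 14.4 to 4.17 kb.

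Equal list lengths removed part of the 5hmC difference. With each list limited to its 42301 best peaks by score, 5hmC covered 1.84 kb, 10.6 kb and 10.8 kb of the flank at the 3 stages. The rise from day 3 to iPS cells thus depended on the lengths of the lists. 5mC then covered 12.7 kb, 15.2 kb and 4.17 kb. With a score of at least 100, 5hmC covered 0 kb, 11.7 kb and 17.1 kb and 5mC covered 12.7 kb, 18.2 kb and 2.94 kb.

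When overlapping peaks of the 6 lists were merged, the downstream flank held 15 sites. A site can hold peaks that do not overlap each other. No site had peaks in all 6 lists. 5hmC was present at 3, 6 and 12 sites at the successive stages, and 5mC at 9, 11 and 3. The whole lists held 42301, 116087 and 174079 peaks for 5hmC and 104011, 165869 and 61171 for 5mC. The site counts thus rose and fell in the same order as the list sizes. The 12 iPS 5hmC sites comprised 6 without 5hmC before, 3 that had it from day 3, 2 that had it at all stages and 1 that had it in fibroblasts and not at day 3. Genome shares of these 5hmC patterns were not computed. Over the whole lists, 32.9% of iPS 5hmC peaks lay on a day-3 5hmC peak and 15.7% on a fibroblast one. Nothing particular to Pou5f1 was therefore read from these 5hmC patterns. Of the 9 fibroblast 5mC sites, 3 had 5mC at all stages, 5 had it in fibroblasts and at day 3, and 1 in fibroblasts alone. Of 96371 such sites in the genome, 38.9%, 50.8% and 8.69% had these patterns, so the counts at Pou5f1 were near the background. In iPS cells 9 sites had 5hmC alone, 3 had both marks, 3 had neither and 0 had 5mC alone. In fibroblasts 1 site had 5hmC alone, 2 had both and 7 had 5mC alone. Over 297011 merged sites of the genome, 5hmC alone, both marks and 5mC alone made up 41.8%, 13.0% and 6.27% in iPS cells and 9.86%, 4.13% and 28.3% in fibroblasts.

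Of the 7 sites with 5mC alone in fibroblasts, 3 had 5hmC at day 3 and 6 had it in iPS cells. Of 84118 such sites in the genome, 28.0% and 64.3% did. Of these 6, 3 no longer had a 5mC peak and 3 had both marks, where 56.1% of the genome's sites of that kind had no 5mC peak. With so few sites, nothing particular to Pou5f1 was read from these counts. The sites with both marks in iPS cells were the 3 that kept 5mC throughout. They lay between 13.92 and 24.90 kb from the start and held the only iPS 5mC peaks of the flank.

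At the site from 21.60 to 24.90 kb (35664604 to 35667903), the 5mC scores at the 3 stages were 683.91, 1326.25 and 125.43. There was no 5hmC peak at the site in fibroblasts or at day 3, and the iPS 5hmC peak had a score of 693.70, the best of the iPS 5hmC list in this flank. The site from 17.98 to 21.07 kb (35660984 to 35664075) had the same pattern. Its 5mC scores were 496.66, 1275.86 and 250.98, and its best iPS 5hmC score was 666.22. Within their lists, 1.7% and 1.87% of iPS 5hmC peaks had a higher score. At the third, from 13.92 to 16.06 kb (35656924 to 35659057), 5hmC was already listed at day 3 with 64.10 and had 322.60 in iPS cells. The 5mC scores there were 269.72, 1258.94 and 98.49. These 3 sites are those where 5mC peaks were present throughout and 5hmC peaks came later.

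The site nearest the run, from 10.91 to 13.28 kb (35653908 to 35656280), had no peak in fibroblasts. At day 3 it had a 5hmC peak with a score of 1190.22, the best day-3 5hmC peak of the flank, and a 5mC peak with 250.36. In iPS cells it had 5hmC with 176.15 and no 5mC. Both marks were thus listed there first at day 3. A further strong day-3 5hmC peak, with 1124.64, lay in the site from 41.64 to 46.72 kb (35684637 to 35689715). That site had 5hmC at all stages, with 57.51 in fibroblasts and a best score of 210.32 in iPS cells. Its 5mC scores were 67.11 in fibroblasts and 155.77 at day 3, with no iPS 5mC peak. At the site from 48.68 to 51.80 kb (35691684 to 35694795) 5hmC was also listed at each stage, with 81.29, 329.07 and 377.46. 5mC had 511.42 and 929.51 there in fibroblasts and at day 3 and no peak in iPS cells.

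Inside the run each 5hmC peak overlapped 5mC at its own stage. On the downstream side, 0 of 3 fibroblast 5hmC peaks lay on a fibroblast 5mC peak, 6 of 7 at day 3 and 4 of 14 in iPS cells. Over the whole window the shares were 3 of 6 (50%, 95% Wilson interval 18.8 to 81.2), 10 of 11 (90.9%, 62.3 to 98.4) and 8 of 20 (40%, 21.9 to 61.3). Over the whole lists they were 27.2%, 40.4% and 23.5%. The window counts include the run's peaks, which all lay on 5mC. The intervals were therefore not used to compare the window with the lists. From the 5mC side, 3 of 13, 11 of 18 and 6 of 6 peaks of the window lay on 5hmC, against 11.1%, 28.8% and 67.2% of the lists. Intervals cover counting error only, and neighbouring peaks are not independent.

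**Figure D4:**
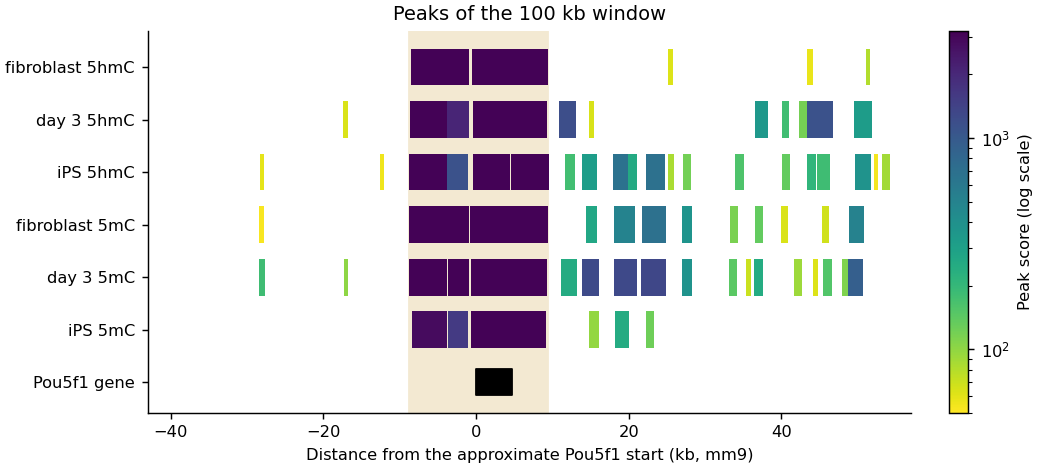
All 74 peaks of the window by list (rows) against distance in kb from the approximate Pou5f1 start, with the score as colour on a log scale, the gene in black and the widest extent of the run shaded. Peaks outside the run lie mostly downstream, where iPS 5hmC has 14 and iPS 5mC has 3.

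Compared with its neighbours, the Pou5f1 window was among the most covered. In the 21 windows from 10 before to 10 after it, it ranked 1, 2 and 3 by 5hmC covered length at the 3 stages and 2, 4 and 1 by 5mC. The covered lengths were 19.3 kb, 30.4 kb and 38.1 kb for 5hmC, against medians of 3.17 kb, 9.17 kb and 13.6 kb in the other 20 windows. For 5mC they were 33.2 kb, 39.6 kb and 21.1 kb, against 10.1 kb, 19.3 kb and 4.33 kb. In fibroblast 5hmC only 5 of the 22088 genome windows with a peak in any list had more covered length, or 0.0226%. The percentages for the other lists were 1.5% in day-3 5hmC, 2.08% in iPS 5hmC, 0.471% in fibroblast 5mC, 0.955% in day-3 5mC and 0.471% in iPS 5mC.

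The run made up much of this, most of all in the 2 lists with few other peaks. It held 90.5% of the covered length of the window in fibroblast 5hmC and 80.3% in iPS 5mC, and between 44.9% and 57.1% in the other 4. Without the run, peaks covered 2.25%, 16% and 25.3% of the remaining length for 5hmC and 18.6%, 26.7% and 5.1% for 5mC. The window then ranked 13, 9 and 6 of 21 for 5hmC and 6, 7 and 9 for 5mC. The median share covered in the other windows was 3.17%, 9.17% and 13.6% for 5hmC and 10.1%, 19.3% and 4.33% for 5mC. Fibroblast 5hmC outside the run was thus below the median of the neighbours, and the other 5 lists were above it.

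The windows on both sides differed from each other. The window just before, from 35500001 to 35600000, held no peak of any list. In the one before that, from 35400001 to 35500000, the 6 lists covered between 0 and 2.08 kb. H2-Q10 and H2-Q7 of the major histocompatibility complex are among the genes before Pou5f1 in the RefSeq order. The next window, from 35700001 to 35800000, had 7.34 kb, 13.2 kb and 22.8 kb of 5hmC at the 3 stages and 17.3 kb, 24.3 kb and 13.3 kb of 5mC. In the one after, from 35800001 to 35900000, 5hmC covered 5.29 kb, 23.8 kb and 25.6 kb and 5mC covered 15.6 kb, 23.3 kb and 4.5 kb. Both downstream windows had more 5hmC in iPS cells than in fibroblasts and less 5mC, as the flank of Pou5f1 did.

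**Figure D5:**
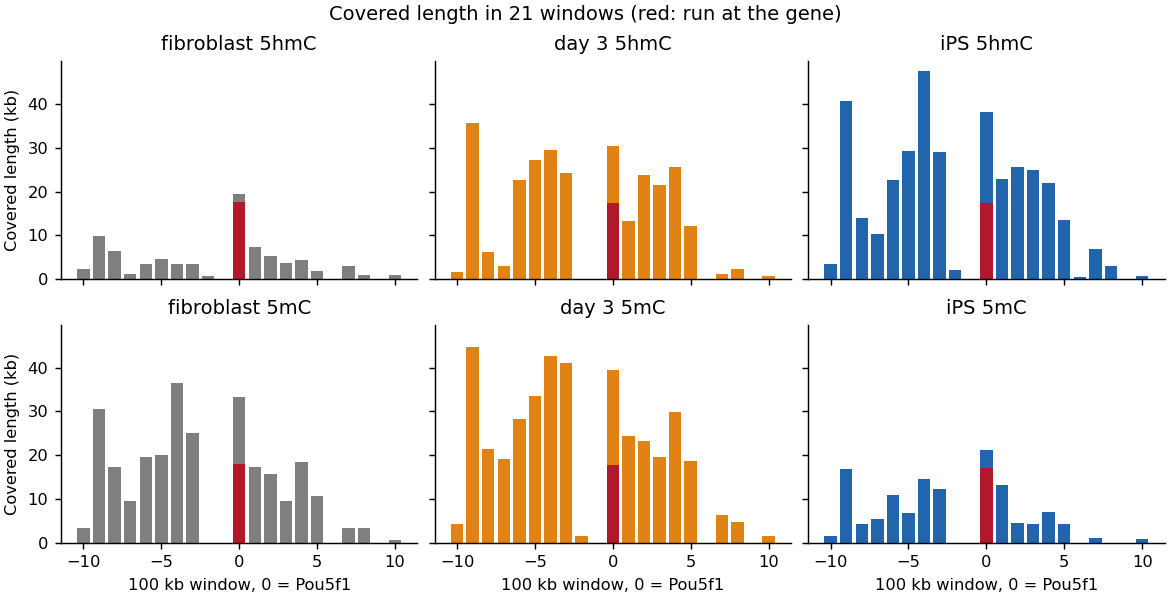
Covered length in kb in the 21 windows of 100 kb, by list, with the window of Pou5f1 at 0 and its run in red. The Pou5f1 bar is the highest in fibroblast 5hmC and iPS 5mC, where the run makes up 90.5% and 80.3% of it.

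By covered length in the 6 lists, the most similar window of the chromosome was 34700001 to 34800000, with a summed difference of 29.4 kb. It had 9.79 kb, 35.7 kb and 40.6 kb of 5hmC and 30.5 kb, 44.8 kb and 16.9 kb of 5mC. The next were 28400001 to 28500000, with 34.9 kb, and 45800001 to 45900000, with 38.2 kb. All 3 had less fibroblast 5hmC than the Pou5f1 window, at 9.79 kb, 5.14 kb and 7.05 kb against 19.3 kb. The run held 90.5% of that 19.3 kb. Outside the run, fibroblast 5hmC covered 1.84 kb of the Pou5f1 window, less than in any of the 3.

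Over the whole window, 5hmC covered 18.8 kb more in iPS cells than in fibroblasts, and 5mC fell by 12.1 kb. Of 22088 windows of 100 kb, 70.0% had more 5hmC and 65.1% less 5mC between these stages. A 5hmC gain of that size or more occurred in 12.7% of them and such a 5mC loss in 2.77%. From day 3 to iPS cells, 5mC fell by 18.4 kb, a size reached in 4.23% of windows, where 85.1% had less. From fibroblasts to day 3, 5hmC covered 11.1 kb more and 5mC 6.36 kb more, with 65.4% and 81.0% of windows having more and 13.3% and 13.0% reaching that size. The rise of 5hmC from day 3 to iPS cells was 7.68 kb, where 55.9% of windows had a rise and 18.2% reached that size. With lists of equal length it was 0.306 kb. Other values also shrank by over 1.5 times with equal lengths. The 5hmC gain from fibroblasts to iPS cells was then 8.95 kb and the 5mC gain to day 3 was 2.23 kb, while 5mC fell by 11.8 kb from day 3 to iPS cells. The shares of genome windows were computed with the lists as deposited. Their sizes are in covered kb, which depend on how much of a window is covered.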

How the data were processed

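Sonicated mouse DNA was ligated to adapters and 500 ng was immunoprecipitated with an antibody against 5hmC or 5mC, amplified for 14 to 16 cycles and selected at 300 to 500 bp, per the labels' protocols. CASAVA 1.8, Bowtie 0.12.7, MACS 1.4.1 and the build mm9 are named in the submitters' processing notes. Each deposited file is 1 peak list of 1 library, with a score per peak made by the authors. Control library, caller settings, duplicates and read depth are not stated in the labels or files, so more peaks can mean more reads, and lists were compared without tests.

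The members and regions were chosen with earlier results of these data known. Covered length and overlaps (from 1 bp) were computed with Python 3.11.15, numpy 2.4.6 and scipy 1.17.1, and figures with matplotlib 3.10.9. The interval code was checked on 4000 simulated queries, with 0 wrong. Background tiles have the length of the segment compared and run from the first to the last peak of each chromosome. Coordinates are mm9, counted from 1, except RefSeq sequences on GRCm38.p6. The promoter table matched Pou5f1 with 2 entries. Named peaks are those within 10 kb of the gene. Of the others, the rule named the best of each list, those overlapping at least 4 other lists, the 2 windows on each side and the 3 most similar windows. Further sites in the downstream flank were chosen after their values were seen. The alternatives tried were a score of at least 100, equal list lengths, joined peaks, other overlap rules, other gene starts and other window sizes.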

Additional observations from a re-analysis of the deposited data

Results flagged for a closer look

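From fibroblasts to iPS cells and from day 3 to iPS cells, both marks went in opposite directions around Pou5f1, which is what singled out these values, although only a single library stands behind each value. Whether the marks differ was not tested. From fibroblasts to iPS cells, 5hmC covered 18.8 kb more of the window and 5mC changed by -12.1 kb. In the downstream flank these values were 17.6 kb and -10.3 kb, and in the upstream flank 1.16 kb and -0.737 kb. From day 3 to iPS cells the window changed by 7.68 kb for 5hmC and -18.4 kb for 5mC. The downstream flank changed by 7.09 kb and -16.2 kb, and the upstream flank by 0.494 kb and -1.4 kb. The upstream values rest on 6 peaks in all. None of these remained with equal list lengths, and with a score of at least 100 only 2 day-3 5mC peaks did, so the opposite directions upstream were lost under both settings. From fibroblasts to day 3 both marks rose, by 11.1 kb for 5hmC and 6.36 kb for 5mC in the window, 10.5 kb and 5.96 kb in the downstream flank, and 0.668 kb and 0.658 kb in the upstream flank.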

How the results depend on the processing

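No paired analysis was possible because each stage and mark has 1 library. Of 114 alternative values, 85 stayed within 1.5 times the reported one or within its interval, 29 moved further and 0 changed direction. The run's peaks all scored at least 1115.92, so no score or list-length setting could remove the run from any of the 6 lists. The 85 values include the presence of peaks at segments in the run under these settings, which was fixed in the same way. With a score of at least 100, the window held 3 fibroblast 5hmC peaks, and 100% of these lay on 5mC. With equal list lengths, iPS 5hmC and day-3 5mC had 10 window peaks each, and 11 each with peaks within 1000 bp joined. Equal lengths also gave 0.306 kb for 5hmC from day 3 to iPS cells, 8.95 kb for 5hmC from fibroblasts to iPS cells, and 2.23 kb and -11.8 kb for 5mC from fibroblasts to day 3 and from day 3 to iPS cells. In the window of 50 kb around the start, 5hmC rose by 3.53 kb to day 3 and by 9.3 kb to iPS cells from fibroblasts. 5mC changed there by 3.62 kb to day 3, -7.77 kb from day 3 to iPS cells and -4.15 kb from fibroblasts to iPS cells. In the window of 200 kb, 5hmC rose by 20.3 kb from fibroblasts to day 3. At least 50% of the 10 kb after the gene was covered in 3 lists, against a peak in 6. By number of peaks the window ranked 4, 11 and 6 of 21 for 5hmC and 8, 8 and 6 for 5mC. Without the run, a setting chosen after seeing the data, it ranked 13, 9 and 6 for 5hmC and 6, 7 and 9 for 5mC. Depth is unknown, so absence of a peak does not show absence of a mark.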
